A study of Mus musculus with 14 samples.

Results

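The regions described here are converted AGO2 binding groups in 3′ UTRs that hold a seed match to the miR-29 family. A binding group is a cluster of overlapping PAR-CLIP reads, and a converted group has at least 1 T-to-C change, the mark that a crosslinked 4-thiouridine leaves in a read. Groups were taken from the PAR-CLIP tables when they were annotated to a 3′ UTR, had a conversion event and held a 7mer that pairs with bases 2 to 8 of miR-29 (7mer-m8) or with bases 2 to 7 followed by an A (7mer-A1). The rule was met by 312 of 85458 groups in the library labelled KO and by 380 of 66451 groups in the library labelled WT, 692 of 151909 in all. They lie in the 3′ UTRs of 441 named genes, 299 of them in the KO-labelled library, 362 in the WT-labelled library and 220 in both. No read count or fold change was used to choose them.

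The study addressed the effect of ELAVL1 (HuR), a protein that binds AU-rich RNA, on miRNA binding in mouse macrophages. Cells labelled KO carried the floxed allele ELAVL1f/f with LysM-Cre, a recombinase expressed from the lysozyme locus of myeloid cells, and cells labelled WT carried ELAVL1f/f without Cre, both on a C57BL/6 background. Marrow cells of both were grown into macrophages with 20% L929-conditioned medium, for 6 days in the protocol and 7 days in the design text. Each label had 1 PAR-CLIP library and 4 mRNA libraries, and small RNA was sequenced from KO numbers 3 and 4 and WT numbers 1 and 2.

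PAR-CLIP groups held 6445262 reads in the KO-labelled library and 6287870 in the WT-labelled library, a total that leaves out reads outside listed groups. The mRNA libraries held 8160789 to 25030262 counts and the small RNA libraries 6886110 to 10265453. Elavl1 (ENSMUSG00000040028) had 69.5 ± 6.13 CPM in KO-labelled and 63.5 ± 2.00 CPM in WT-labelled mRNA libraries (SD, n = 4 each), a log2 fold change of 0.13 (SE 0.13, edgeR adjusted p = 0.9999). The mRNA of the targeted gene was thus not lower in the KO-labelled libraries, but a count over the whole gene includes exons outside any deleted part, and which exons are floxed is not given in the sources used here. Lyz2, the lysozyme gene that hosts LysM-Cre, had 3723 to 6142 CPM in KO-labelled and 9949 to 15451 CPM in WT-labelled libraries, and was lower in every KO-labelled library than in every WT-labelled one. On the log2 scale the fold change of Lyz2 came to -1.29 (SE 0.24, edgeR adjusted p = 0.9999; SE 0.10 and adjusted p = 0.000472 with the replicate number as a block). All 9 macrophage markers looked at were tested and 0 of them were at 0 in every library. Their summed level, of which Lyz2 is a large part, was 12822 to 16457 CPM in KO-labelled and 19842 to 24983 CPM in WT-labelled libraries. The markers did not fall as a set, since 5 had a fold change above 0 and 4 below, with a median log2 value of 0.05. The labels do not link the numbers to animals, so every p-value reflects the variation among these libraries alone, part of which may be technical.

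The miR-29 family consists of miR-29a, miR-29b and miR-29c, made from clusters that pair miR-29a with miR-29b-1 and miR-29b-2 with miR-29c. A miRNA guides AGO2 to mRNAs mainly through its seed, and AGO2 then recruits TNRC6 and the CCR4-NOT deadenylase, which lowers the stability and translation of the mRNA. In other tissues miR-29 is known for acting on collagens and further matrix genes, on DNA methyltransferases and TET enzymes, and on survival genes of the BCL2 family. The mature 3p arms are printed because they define the site, with the seed (bases 2 to 8) in capitals, 5′ to 3′, from RefSeq on GRCm38.p6. All members share this seed and differ only downstream of it.
miR-29a-3p, chromosome 6, minus strand: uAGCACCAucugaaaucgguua
miR-29b-3p, chromosomes 6 (minus strand) and 1 (plus strand): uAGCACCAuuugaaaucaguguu
miR-29c-3p, chromosome 1, plus strand: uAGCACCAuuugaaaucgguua

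The matching letters are TGGTGCT for the 7mer-m8, GGTGCTA for the 7mer-A1 and TGGTGCTA for the 8mer, which is both at once. The windows below are parts of group sequences as deposited, 5′ to 3′ on the mRNA strand, on mm9, with the site in capitals. The first set holds sites of loci among those with the most AGO2 reads, summed over the locus. These are in Fos (an AP-1 subunit), Lpl (lipoprotein lipase), Cflar (the caspase-8 regulator c-FLIP) and Ifi30 (a lysosomal thiol reductase). At Fos most KO-labelled reads lay outside the group with the site, as described below.
Fos, chr12:86817775-86817804, plus strand: ttcattattggaattaaccTGGTGCTggat
Lpl, chr8:71430657-71430686, plus strand: agtatagatttgTGGTGCTAactttgtgtc
Cflar, chr1:58812973-58812997, plus strand: cctaaaataaactactTGGTGCTAg
Ifi30, chr8:73286702-73286731, minus strand: ccttattttcaaaTGGTGCTAaatttaaat
The second set shows how several sites lie in the 3′ UTRs of the TET enzymes, which oxidise 5-methylcytosine, and of the DNA methyltransferase gene Dnmt3a.
Tet3 site 1, chr6:83316645-83316674, minus strand: aacgtTGGTGCTttaatttctgtgacattg
Tet3 site 2, chr6:83314325-83314350, minus strand: atagtctaataaaTGGTGCTAtggtg
Tet3 site 3, chr6:83314205-83314228, minus strand: cttttcttccctctttTGGTGCTg
Tet3 site 4, chr6:83313759-83313786, minus strand: cttttagtTGGTGCTAaacttctccctg
Tet2 site 1, chr3:133129292-133129321, minus strand: agcagttgcaggatcatcTGGTGCTgacgt
Tet2 site 2, chr3:133129133-133129162, minus strand: ttgggtgttaacattaaaTGGTGCTAcaaa
Tet2 site 3, chr3:133128629-133128650, minus strand: ttttTGGTGCTcaccttacttg
Dnmt3a site 1, chr12:3908563-3908588, plus strand: acttcataaTGGTGCTttcaaaacag
Dnmt3a site 2, chr12:3908986-3909010, plus strand: atacaaaatgtacTGGTGCTttctg
The third set holds the site of highest and the site of lowest read ratio among loci with at least 30 reads in each library (Rab40c and Col4a5), followed by sites that only 1 library listed, of which Cfl2 is the example of a 7mer-A1 without an m8 match.
Rab40c, chr17:26019492-26019518, minus strand: cacgcTGGTGCTtaactctacctcctg
Col4a5 site 1, chrX:138122786-138122815, plus strand: ctcccaccaaTGGTGCTAatatcctctatg
Setdb1, chr3:95127830-95127856, minus strand: atcaggactttcccagcgTGGTGCTAg
Cfl2, chr12:55959878-55959907, minus strand: ctagctttaaaagctatacGGTGCTAatta
Col3a1, chr1:45405821-45405847, plus strand: tctcaaTGGTGCTAtaataaataaacg

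The 312 KO-labelled groups held 315 sites and the 380 WT-labelled groups 381. Most sites were 7mer-m8 without the A, 66.0% of KO-labelled and 63.0% of WT-labelled sites. Another 24.1% and 25.2%, in the same order, were 8mers and 9.84% and 11.8% were 7mer-A1. Groups with an 8mer had the most reads, a median of 53 in the KO-labelled and 49 in the WT-labelled library. Groups with a 7mer-m8 had medians of 36.5 and 32, and groups with a 7mer-A1 medians of 31 and 26. The order 8mer, 7mer-m8, 7mer-A1 was thus the same in both libraries. Of the 470 distinct sites 226 were in groups of both libraries, 71.7% of the KO-labelled sites and 59.3% of the WT-labelled sites.

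A miR-29 site was found in 2.19% of 14217 converted 3′ UTR groups of the KO-labelled library (95% interval 1.96 to 2.45%, exact Clopper-Pearson) and in 1.98% of 19202 in the WT-labelled library (1.79 to 2.19%). The intervals overlap, and with 1 library per label the difference was not tested. Groups annotated to a 3′ UTR but without conversion held the site in 1.69% (1.27 to 2.19%, 54 groups) and 1.27% (0.898 to 1.75%, 37 groups) for KO and WT labels. In converted groups of coding sequence the share was 1.62% (1.33 to 1.96%) in the KO-labelled and 1.68% (1.41 to 1.98%) in the WT-labelled library. Intronic converted groups had it in 2.12% (1.68 to 2.65%) and 2.25% (1.77 to 2.81%), so 3′ UTRs did not stand above introns. The shares depend on group length, which was a median of 25 bases in converted 3′ UTR groups and 20 (KO) and 22 (WT) bases in intronic ones. Per 1000 windows of 7 bases there were 1.10 groups with a site in KO-labelled and 0.940 in WT-labelled converted 3′ UTR groups, against 1.09 and 0.758 in unconverted 3′ UTR groups. The values were 1.40 and 1.35 in converted groups of introns and 0.887 and 0.879 in those of coding sequence. The intervals cover counting error over groups only, with 1 library per label, and the reads carry no molecular identifiers.

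**Figure D1:**
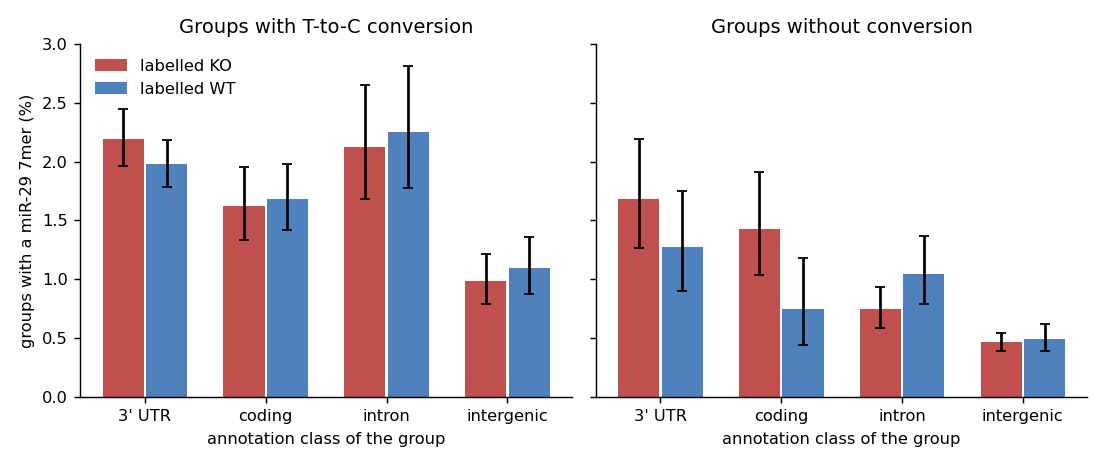
Share of AGO2 groups that hold a miR-29 7mer (y axis, percent) by annotation class, with T-to-C conversion (left) and without (right). Bars are the KO-labelled and WT-labelled library, 1 library each, and lines are 95% exact intervals. Converted 3′ UTR groups reached 2.19% and 1.98%, near converted intronic groups and above converted intergenic groups (0.985% and 1.10%).

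Groups with a miR-29 site carried more reads than the other converted 3′ UTR groups. Their median was 40 reads in the KO-labelled library, against 21 over the 13905 other groups, and 33 in the WT-labelled library, against 19 over 18822. Among groups of 20 to 29 bases the medians were 35 against 19 and 24 against 16. More than 1 position was converted more often too, since 59.0% of the KO-labelled and 54.2% of the WT-labelled groups had a single converted position, against 81.9% and 77.8% of the others. The number of conversion events per 100 reads was 83.6 in the KO-labelled and 88.8 in the WT-labelled groups.

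The site lay towards the 3′ end of the group, with a median of 13 (KO) and 14 (WT) bases before it and 5 bases after it in both. At most 5 bases followed the site in 169 of 315 KO-labelled and 197 of 381 WT-labelled cases, whereas at most 5 preceded it in 36 and 41. The last base of the group was G in 85.6% and 87.6% of groups, against 78.0% and 79.7% of the other converted 3′ UTR groups. The base just before the site was most often T, in 38.1% and 33.8% of sites, but T also made up 38.5% and 37.3% of all bases in these groups. Before a 7mer-A1 this base cannot be T, since the site would then be an 8mer. A search for 7mers of 11 other miRNA families abundant in macrophages, such as let-7, miR-16 and miR-27, found 15 KO-labelled and 18 WT-labelled groups. These were 4.81% and 4.74% of the miR-29 groups, against 18.2% and 17.3% of the other groups. The AU-rich pentamer ATTTA, searched on the mRNA strand, was in 4.81% and 5.0% of the miR-29 groups. It was in 6.88% and 7.85% of the others, a description that says nothing of ELAVL1 itself. The required miR-29 site fills part of each chosen group and leaves fewer bases for another motif. Both shares are thus lowered by the rule of choice, by an amount that was not tested, and cannot be read as depletion.

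Joining groups of both libraries that share at least 1 base on the same strand gave 467 loci with a miR-29 group. Of these 285 were in both libraries (61.0%), 72 in the KO-labelled library only (15.4%) and 110 in the WT-labelled library only (23.6%). Over all 25634 loci with a converted 3′ UTR group, 33.5% were shared, 24.1% were KO-only and 42.4% WT-only. Among the miR-29 groups 76.9% of the KO-labelled (71.8 to 81.5%) and 71.1% of the WT-labelled ones (66.2 to 75.6%) overlapped a group of the other library, against 56.2% and 42.8% of the other converted 3′ UTR groups. Overlap went with reads: at 20 reads or more the shares were 84.9% and 85.5%, against 71.3% and 63.9% for the others, and all 80 and 104 groups of at least 100 reads overlapped, against 99.8% and 97.9%. All 111 miR-29 loci with at least 100 reads in either library were shared. Loci of 1 library alone were thin, with a median of 19.5 reads (KO-only) and 16 reads (WT-only), and the lowest read count of any listed group was 5.

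Reads at shared loci are given as RPM, scaled to all reads in listed groups of that library. The median log2 ratio of KO-labelled over WT-labelled reads was -0.23 over the 285 shared loci (quartiles -0.83 and 0.49), beside -0.24 over all 8598 shared loci with a converted 3′ UTR group, and it became 0.05 beside 0.04 when scaled to reads in converted 3′ UTR groups. The median of the miR-29 loci minus that of all loci was 0.01, and it was -0.01 with 7mer-m8 sites alone and 0.06 with groups of at least 20 reads. A ratio of at least 2 was found at 44 loci in the KO-labelled direction (15.4%, against 13.5% of all shared loci) and at 60 in the WT-labelled direction (21.1%, against 23.3%). With the second scaling the split was 61 and 47, so that 56.5% of the loci past a factor of 2 were in the KO-labelled direction, against 55.4% of such loci over all shared loci. There was no replicate library, so none of these differences has a test.

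**Figure D2:**
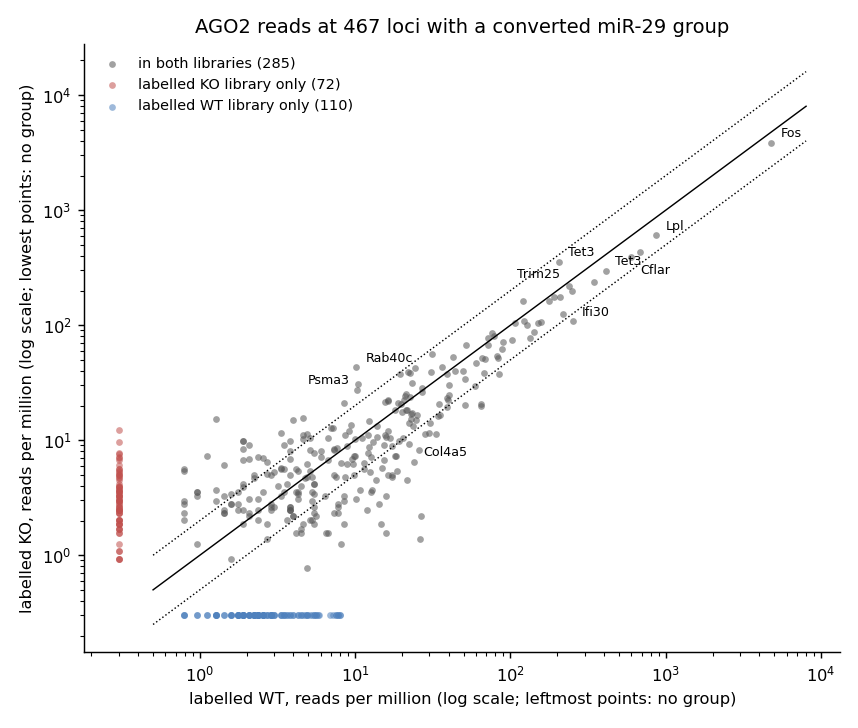
RPM at each locus with a miR-29 group, KO-labelled (y axis) against WT-labelled (x axis), both on log scales. Points on the left and bottom edges had no overlapping group in the other library, the solid line marks equality and dotted lines a ratio of 2. The 285 shared loci scatter about the line, and the 72 and 110 loci of 1 library all lie low.

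Fos held the most reads of the 467 loci, but in the KO-labelled library mostly outside the group with its site. In the KO-labelled library the locus (chr12:86817712-86817859) was listed as 4 groups of 82, 23370, 580 and 873 reads, of which only the third, with 580 reads, holds the site. In the WT-labelled library it was 1 group of 146 bases with 30011 reads. Summed over the locus the ratio was 0.810 (95% counting interval 0.796 to 0.823). The 23370 KO-labelled reads sat in a group of 25 bases that ends before the site, and 94.8 conversion events per 100 reads were listed there. The position of reads inside the WT-labelled group is not given, so how many of its reads covered the site is unknown.

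**Figure D3:**
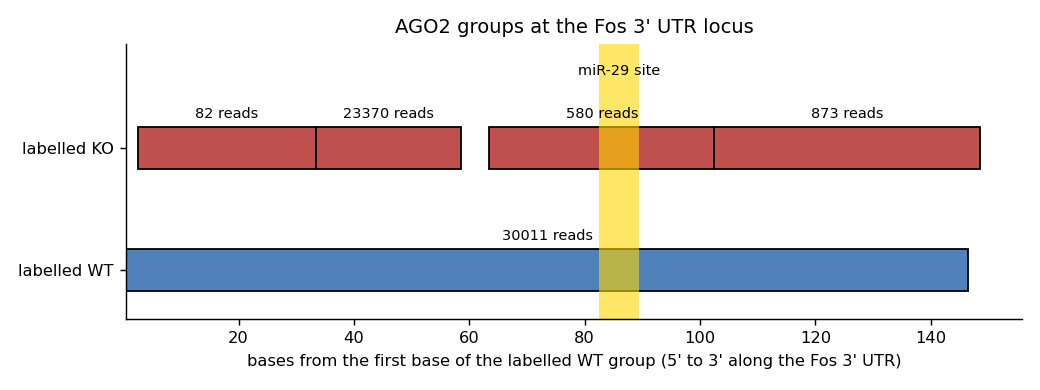
Groups listed at the Fos 3′ UTR locus, drawn to scale in bases from the first base of the WT-labelled group (x axis), with read counts above each group. The yellow band is the miR-29 7mer, at bases 83 to 89. The KO-labelled group with 23370 reads does not reach the band, and the WT-labelled group spans all of it.

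The Fos locus set much of the difference in the share of reads. The miR-29 groups took 3.36% of the reads in converted 3′ UTR groups of the KO-labelled library (48658 of 1449651) and 5.35% in the WT-labelled library (91974 of 1719975). Without Fos the shares were 3.38% and 3.67%. Elsewhere the reads mostly belonged to the group with the site: at 249 of the 285 shared loci all reads of both libraries were in groups that hold it. At 25 shared loci only 1 library's group reached the site, 6 in the KO-labelled and 19 in the WT-labelled library. Trim25, which encodes a ubiquitin ligase of RIG-I signalling, is a further exception, with 152 of 1422 KO-labelled and 205 of 1494 WT-labelled reads in groups that hold the site.

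After Fos the loci with the most reads included Lpl and Cflar. Lpl had 605 RPM in the KO-labelled and 869 in the WT-labelled library, a ratio of 0.696 (0.668 to 0.726). Cflar had 388 and 599 RPM (0.649; 0.617 to 0.683). The palmitoyltransferase gene Zdhhc21 had 236 and 347 RPM. These 3 lay below the median of all loci in relative terms, by less than a factor of 2. Mcart1 (Slc25a51, a mitochondrial carrier) had 198 and 248 RPM, Spast (the microtubule-severing enzyme spastin) 177 and 210, and Smpdl3a (a phosphodiesterase of the sphingomyelinase family) 176 and 191. Ifi30, also among the 12 loci of most reads, was past a factor of 2, at 109 in the KO-labelled and 252 in the WT-labelled library, a ratio of 0.432 (0.395 to 0.473), but it stood at -0.93 on the log2 scale when scaled to converted 3′ UTR reads. Its mRNA had 117 ± 32.0 RPKM in KO-labelled and 110 ± 23.4 RPKM in WT-labelled libraries (SD, n = 4 each, authors' RPKM).

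Several sites lay in genes that write or erase DNA methylation. Tet3 had 4 sites, at which the KO-labelled library had 673, 2292, 567 and 1922 reads (sites 1 to 4) and the WT-labelled library 946, 1283, 887 and 2608. The ratio was 0.694, 1.74, 0.624 and 0.719, so site 2 (1.63 to 1.87) went the other way from the other sites in the same 3′ UTR, also when scaled to converted 3′ UTR reads. Tet3 mRNA had 59.6, 46.6, 52.9 and 50.9 CPM in KO-labelled libraries 1 to 4, against 49.4, 44.5, 43.4 and 49.4 CPM in WT-labelled libraries 1 to 4. The groups overlapped, with a log2 fold change of 0.17 (SE 0.14, edgeR adjusted p = 0.9999; 0.5763 with the block).

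Tet2 had 3 sites. Site 2 had 430 KO-labelled and 451 WT-labelled reads and site 3 had 69 and 99, while site 1 had 50 reads in the KO-labelled library and no overlapping group in the WT-labelled library. Dnmt3a had 242 against 528 reads at its first site (ratio 0.447; 0.382 to 0.522) and 12 against 53 at its second, where the KO-labelled group had no conversion. Both Dnmt3a sites were thus lower in the KO-labelled library, and at -0.88 on the log2 scale the first was also lower when scaled to converted 3′ UTR reads. Dnmt3a mRNA had 5.32 ± 2.07 RPKM in KO-labelled and 4.37 ± 1.05 RPKM in WT-labelled libraries, with a log2 fold change of 0.29 (SE 0.28, edgeR adjusted p = 0.9999) that was 0.0058 without KO 3 and 0.44 without KO 2. Of the 6 genes on the list of DNA methylation genes 4 had a converted 3′ UTR group and 3 a miR-29 group. Of the list's 5 tested genes 0 passed the mRNA test, as did 0.00% of all genes tested, and the 5 fold changes were above 0 with a median log2 value of 0.27.

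Of the 26 survival and growth genes reported as miR-29 targets 22 had a converted 3′ UTR group and 14 a miR-29 group. Among all 14019 genes tested for mRNA 432 had a miR-29 group. The list was chosen with earlier results of these data known, so its count is a description. The BH3-only genes Bmf, Bbc3 (PUMA) and Bcl2l11 (BIM), which trigger apoptosis, all had sites. Bmf had 60 reads in the KO-labelled and 139 in the WT-labelled library (ratio 0.421; 0.306 to 0.574), and Bcl2l11 had 17 and 49. Bbc3 had 50 and 76 reads at its downstream site, and 16 and 75 at the upstream one, where the KO-labelled group does not reach the site. The effector Bak1 had 22 and 34 (ratio 0.631; 0.352 to 1.11), within counting error of equality. Over all 285 shared miR-29 loci 170 had a log2 ratio below 0, and 139 when scaled to converted 3′ UTR reads. Their median of -0.23 was near that of all 8598 shared loci with a converted 3′ UTR group, -0.24.

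Of the growth factor genes, Igf1 (insulin-like growth factor 1) had 75 KO-labelled and 188 WT-labelled reads at its main site (ratio 0.389; 0.294 to 0.511) and 12 and none at the second. Vegfa (vascular endothelial growth factor A) had 96 and 154 (0.608; 0.466 to 0.790). Kinase pathway genes were Pik3r1 (a PI3-kinase regulatory subunit) with 145 and 103 reads and Sgk1 with 15 and 9. The phosphatase Ppm1d (WIP1) had 68 and 32 reads, and Ccnd2 (cyclin D2) 64 and 12, a ratio of 5.20 (2.78 to 10.6), the highest among the listed targets, with no conversion in the WT-labelled group. Cdc42, which encodes a small GTPase, had 18 and 11 reads, and the PDGF receptor gene Pdgfrb 17 and no group. In this list 25 genes were tested for mRNA and 0 passed, against 0.00% of all genes tested. Ccnd2 mRNA had 4.92 ± 3.18 RPKM in KO-labelled and 3.62 ± 2.81 RPKM in WT-labelled libraries, a log2 fold change of 0.44 (SE 0.59, edgeR adjusted p = 0.9999) that turned to -0.12 without KO number 1.

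Immune genes reported as miR-29 targets were Lpl (above), Cd276 (the checkpoint ligand B7-H3) with 300 KO-labelled and 378 WT-labelled reads, Nfia (a transcription factor) with 23 and 79, and Tnfrsf1a (TNF receptor 1) with 16 and 24, 4 of a list of 9. Of that list 6 genes had a converted 3′ UTR group. Among 16 genes of the silencing machinery 14 had a converted 3′ UTR group and 4 a miR-29 group. Dicer1, which processes pre-miRNAs, had 279 and 229 reads, and the Argonaute genes Eif2c1 (Ago1) and Eif2c3 (Ago3) had 32 and 103 reads, and no group and 49 reads. Dcp2, the decapping enzyme, had 11 reads in the KO-labelled library and no group in the WT-labelled one. The mRNA test passed 0 of the 6 immune and 0 of the 16 silencing genes tested, against 0.00% of all genes tested.

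Collagens are well known miR-29 targets in fibroblasts. Of 36 matrix genes 9 had a converted 3′ UTR group and 5 a miR-29 group. Col4a5, a type IV collagen chain, had 3 sites, with 42, 68 and 11 reads in the KO-labelled and 150, 105 and 28 in the WT-labelled library, and its mRNA was at 0.0741 ± 0.0350 RPKM in KO-labelled and 0.0755 ± 0.0158 RPKM in WT-labelled libraries. Lamc1 (a laminin chain) had 71 and 29 reads, with the site inside the WT-labelled group only. Col3a1 had 45 reads in the KO-labelled library and no group in the WT-labelled one, and Col4a1 and Col4a2 had no group and 8 and 11 reads.

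Col3a1 mRNA was at 0, 0.211, 4.47 and 4.72 CPM in KO-labelled libraries 1 to 4, against 0, 0.0934, 0.705 and 2.90 CPM in WT-labelled libraries 1 to 4. It was high in numbers 3 and 4 of both labels, and the labels overlapped. Of 20 matrix genes tested 0 passed, against 0.00% of all genes tested, and 19 had a fold change above 0, with a median log2 value of 1.04 beside -0.00 over all genes. With the block, 11 of the 20 were higher and 0 lower at an unadjusted edgeR p under 0.05, against 4.90% and 4.52% of all genes. The summed level of the matrix list was 1026 to 1137 CPM in KO-labelled and 961 to 1084 CPM in WT-labelled libraries, so there the labels overlapped. Of 10 tested fibroblast markers 0 were called and 10 had a fold change above 0. Their summed level was 5.22 to 84.2 CPM in KO-labelled and 8.78 to 45.9 CPM in WT-labelled libraries, so the labels overlapped, and it was highest in KO numbers 3 and 4 and WT number 4. None of the 12 markers was at 0 in every library, and the list shares Col1a1, Col1a2, Col3a1 and Sparc with the matrix list. Endothelial markers summed to 27.7 to 64.7 CPM in KO-labelled and 20.2 to 41.2 CPM in WT-labelled libraries, and neutrophil markers to 22.9 to 62.0 and 10.5 to 34.8 CPM. The part of these cell types in the matrix values was not tested, and in bulk samples fewer cells of a type and less RNA per cell cannot be told apart.

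Among the 156 shared loci with at least 30 reads in each library, the 4 highest ratios were in Rab40c, Psma3, Morf4l2 and Kdelc1. Rab40c, which encodes a GTPase of a ubiquitin ligase complex, had 279 reads in the KO-labelled and 64 in the WT-labelled library, a ratio of 4.25 (3.23 to 5.67). Psma3 (a proteasome subunit) had 199 and 66 (2.94; 2.22 to 3.95), Morf4l2 (a subunit of the NuA4 acetyltransferase complex) 175 and 65, and Kdelc1 (a protein O-glucosyltransferase) 137 and 53. At the low end were Col4a5 site 1 at 0.273 (0.189 to 0.387), Mbtd1 with 31 and 108 reads, Pcgf3 (a Polycomb group RING protein) with 32 and 109, and Flt3l (the ligand of the FLT3 receptor) with 35 and 117. These 8 were chosen for their ratios, which are therefore descriptions. Rab40c mRNA was at 13.2 ± 2.42 RPKM in KO-labelled and 12.7 ± 2.58 RPKM in WT-labelled libraries, and Psma3 mRNA at 18.1 ± 6.04 and 19.8 ± 8.79 RPKM. For both genes the means differed by less than either SD. These SDs also hold the differences between replicate numbers, so they do not show whether the labels differed within a number. The Pcgf3 site lies in a WT-labelled group of 13 reads and outside the KO-labelled group.

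Of the loci in the KO-labelled library only, Setdb1 (a histone H3 lysine 9 methyltransferase) had 79 reads, Rnpepl1 (an aminopeptidase-like gene) 62 and Tet2 site 1 had 50. Of those in the WT-labelled library only, Arf2 (an ADP-ribosylation factor) and Cfl2 (the actin-severing protein cofilin 2) had 50 each and Trp53inp1 (a p53-induced gene) had 49, as had Ago3. In the library without a group the reads are unknown rather than 0, since groups below the listing threshold are not given, so no ratio is stated. The mRNA of Setdb1 was at 6.12 ± 0.625 RPKM in KO-labelled and 6.09 ± 0.777 RPKM in WT-labelled libraries, close to equal although only the KO-labelled library listed its group.

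The miRNAs themselves were measured in small RNA. miR-29a-3p made up most of the family, with 52860 and 53925 counts in KO-labelled libraries 3 and 4, against 43710 and 40568 in WT-labelled libraries 1 and 2. miR-29b-3p had 7586 and 7143 counts, against 2539 and 5528, and miR-29c-3p 410 and 481, against 368 and 287. The 3p family together was 0.844% and 0.600% of miRNA counts in the KO-labelled libraries and 0.592% and 0.674% in the WT-labelled ones, so as a share the labels overlapped.

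Scaled by TMM, miR-29b-3p had 1132 and 686 CPM in KO-labelled libraries 3 and 4, against 317 and 772 CPM in WT-labelled libraries 1 and 2. The labels overlapped, and the call rested on WT 1 and KO 3. It rose, with a log2 fold change of 0.74 (SE 0.23, edgeR adjusted p = 0.0406), 1 of 22 of 369 miRNAs called (5.96%). The call ended without WT 1 (log2 fold change 0.23, adjusted p = 0.9996), without KO 3 (0.33, adjusted p = 0.621) and with DESeq2 (0.70, adjusted p = 0.744), and it held without WT 2 (1.53) and without KO 4 (1.08). On the log2 scale miR-29a-3p stood at 0.23 (SE 0.20, edgeR adjusted p = 0.7151), which turned to -0.11 without KO 3 and passed without KO 4 (0.52, adjusted p = 0.00279). miR-29c-3p stood at 0.32 (SE 0.30, edgeR adjusted p = 0.745). WT was sequenced from numbers 1 and 2 and KO from 3 and 4, so genotype and number set cannot be told apart, and the file of KO 4 names KO 2 over its column of fractions.

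**Figure D4:**
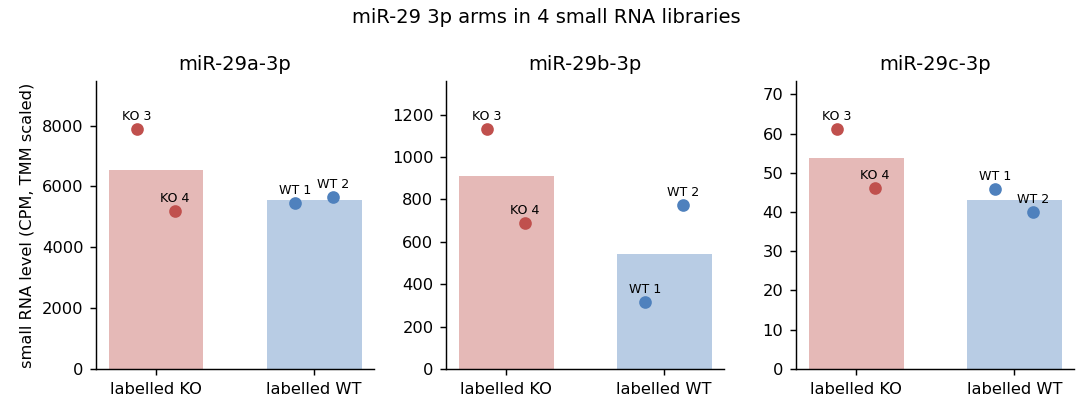
Level of the miR-29 3p arms in small RNA (y axis, CPM scaled by TMM, each panel with its own scale from 0). Points are libraries, labelled by number, and bars are means of 2 libraries. For miR-29b-3p the KO-labelled libraries sit at 1132 and 686 CPM and the WT-labelled ones at 317 and 772 CPM, so the labels overlap.

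The 4 5p arms were at least an order of magnitude below miR-29a-3p, at 87 to 4185 counts in KO-labelled and 105 to 2900 in WT-labelled libraries, and 0 of them passed the edgeR test. In the AGO2 library a group at the miR-29a 3p arm (mm9 chr6:31012672-31012695) had 4876 reads in the KO-labelled and 3685 in the WT-labelled library, 0.216% and 0.153% of reads in miRNA groups. A group annotated to the mir-29c hairpin, which holds the whole miR-29c-3p sequence and with it the first bases that miR-29b-3p shares, had 715 and 533 reads. Whether reads of miR-29b-3p are among them is not known from the table. Both were thus higher in the KO-labelled library, on 1 library each. No group lay at the 3p arm of either miR-29b hairpin. The miR-29b-3p sequence is encoded at 2 loci, and how reads that map more than once were handled is not given in the sources used here.

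Of the 441 gene names 434 were matched to the mRNA table and 432 passed the filter on low counts. Their median level was 7.41 RPKM in KO-labelled and 7.62 RPKM in WT-labelled libraries, beside 5.39 and 5.45 RPKM over all 14019 genes tested. Between labels 0 of 432 were called by edgeR (0.00% of all genes) and 0 had an unadjusted p under 0.05 (0.578% of all genes). DESeq2 called 0 of them as well (0.0214% of all genes). In 0 genes did all 4 KO-labelled libraries lie above all 4 WT-labelled ones (0.350% of all genes) and in 0 below (0.435%). The median log2 fold change was 0.01, beside -0.00 over all genes tested, and 227 values were above 0 and 205 below. By library of the AGO2 group the median was 0.05 over 63 genes with KO-only loci, 0.01 over 101 with WT-only loci and -0.01 over 265 with a shared locus. Taken within each number, the median over the 432 genes was -0.00, 0.03, -0.03 and 0.05 for numbers 1 to 4, an SD of 0.035. On simulated mRNA data the edgeR test between labels recovered 10 of 100 genes given a log2 fold change of 1 in size. It recovered 71 of 97 genes given a log2 fold change of 2. A count of 0 called genes, here or in the gene lists above, therefore does not show that the mRNAs were unchanged.

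With the replicate number as a block, edgeR called 0 of the 432 (0.0357% of all genes), and 39 had an unadjusted p under 0.05, 19 higher and 20 lower (9.03%, against 9.42% of all genes). DESeq2 with the block, an alternative chosen after seeing the data, called 2 (0.585% of all genes), Vegfa and Hexa, which are named for that reason. Vegfa had 24.5, 94.6, 57.2 and 47.7 CPM in KO-labelled libraries 1 to 4, against 31.8, 134, 72.8 and 77.5 CPM in WT-labelled libraries 1 to 4. It was lower in the KO-labelled library of every number, while the labels overlapped, and on the log2 scale its fold change came to -0.49 (SE 0.47, edgeR adjusted p = 0.9999; SE 0.09 and adjusted p = 0.0852 with the block). Hexa, a lysosomal hexosaminidase subunit whose site had 10 reads in the WT-labelled library only, had 611 ± 145 RPKM in KO-labelled and 490 ± 202 RPKM in WT-labelled libraries. On the log2 scale its fold change came to 0.32 (SE 0.31, edgeR adjusted p = 0.9999; 0.2253 with the block). Igf1 was also lower in the KO-labelled library of every number, at -0.37 (SE 0.53, edgeR adjusted p = 0.9999; 0.2905 with the block). Without the block, leaving out 1 library gave -0.66 (without WT 1) to -0.11 (without WT 3) for Igf1, -0.87 to -0.12 for Vegfa and 0.14 to 0.67 for Hexa.

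Among the genes of smallest p without the block, those with a fold change above 0 were 0610030E20Rik, Zfp36, Rassf5, Purg and Jarid2. Zfp36 (tristetraprolin, a protein that speeds the decay of AU-rich mRNAs) holds 2 miR-29 sites and had 154, 161, 208 and 253 CPM in KO-labelled libraries 1 to 4, against 133, 139, 138 and 194 CPM in WT-labelled libraries 1 to 4. Each KO-labelled value exceeded the WT-labelled one of its number, the labels overlapped, and on the log2 scale the fold change came to 0.36 (SE 0.21, edgeR adjusted p = 0.9999; 0.2017 with the block). AGO2 reads at its stronger site were 554 and 479, a ratio of 1.13 (0.997 to 1.28). Jarid2, a subunit of PRC2, was at 48.3 ± 7.42 and 42.0 ± 2.36 CPM. On the other side were Ccna2 (cyclin A2), Fam33a (Ska2, a kinetochore protein), Tpx2 (a spindle assembly factor), Tnip3 (an inhibitor of NF-κB signalling) and 2410066E13Rik. Ccna2 had 31.9 ± 3.30 CPM in KO-labelled and 42.6 ± 11.1 CPM in WT-labelled libraries, a log2 fold change of -0.42 (SE 0.20, edgeR adjusted p = 0.9999; 0.4402 with the block). Tnip3 had 42.2 ± 12.1 and 57.6 ± 18.0 CPM, at -0.45 (SE 0.28, edgeR adjusted p = 0.9999; SE 0.11 and adjusted p = 0.2039 with the block). Tnip3 was lower in the KO-labelled library of every number, while the labels overlapped. None of these 10 passed the test.

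**Figure D5:**
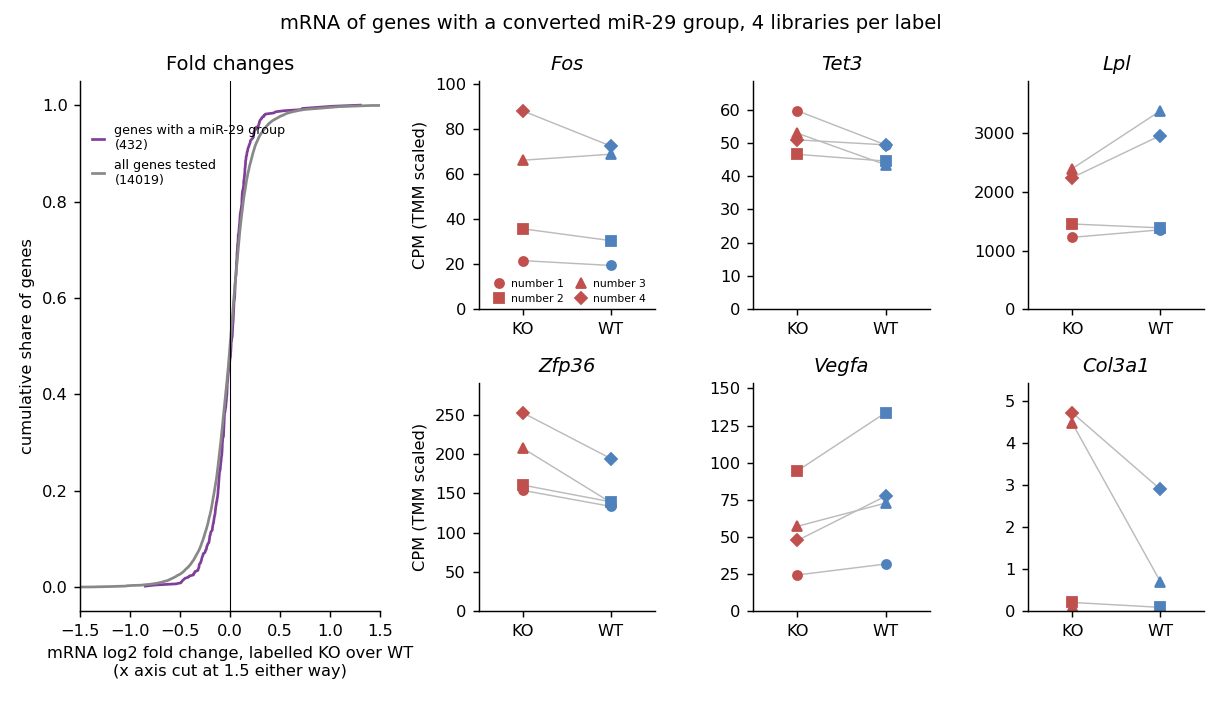
Left, cumulative share of genes (y axis) by mRNA log2 fold change, KO-labelled over WT-labelled (x axis), for 432 genes with a miR-29 group and all 14019 genes tested, with medians of 0.01 and -0.00. Right, CPM of 6 genes in each library, KO left of WT, with lines joining libraries of the same number. The numbers differ more than the labels in Fos, Lpl, Vegfa and Col3a1.

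The replicate number separated these genes more than the label did. In a fit that also held genotype, edgeR called 225 of the 432 genes between the number sets 3 and 4 against 1 and 2 (52.1%, against 51.2% of all genes tested). Fos mRNA, for example, had 21.7, 35.8, 66.2 and 88.2 CPM in KO-labelled libraries 1 to 4, against 19.5, 30.5, 68.9 and 72.5 CPM in WT-labelled libraries 1 to 4. Lpl had 1226, 1453, 2394 and 2242 CPM, against 1353, 1387, 3378 and 2958 CPM. Both genes were higher in numbers 3 and 4 of both labels than in numbers 1 and 2. The PAR-CLIP libraries carry no number, so their place in these sets cannot be told apart from the label.

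AGO2 reads followed the mRNA only loosely. Over 279 pairs of a shared locus and a tested gene, log10 RPM and log10 RPKM had a Spearman correlation of 0.17 in KO-labelled and 0.14 in WT-labelled libraries. KO-labelled and WT-labelled RPM correlated at 0.76. The log2 read ratio and the mRNA log2 fold change had a Spearman correlation of 0.01 (Pearson r = 0.05). These are descriptions across loci that share libraries, and some genes enter with several loci.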

How the data were processed

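AGO2 PAR-CLIP, mRNA and small RNA libraries of macrophages labelled KO and WT were used. The authors deposited raw read counts and RPKM per gene, raw counts per mature miRNA, and PAR-CLIP groups with read and conversion counts, per the file headers. The submitters' processing notes list mm9, Bowtie 0.12.7 and CASAVA 1.8.2. For the group caller, gene counter, strand and multi-mapping no source used here gives a setting, so overlapping, antisense and near-identical genes are uncertain. Group coordinates count from 1.

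Loci joined groups of both libraries that share at least 1 base on 1 strand. RPM was scaled to the reads in all listed groups of a library. Ratio intervals are exact conditional Poisson and shares Clopper-Pearson, both at 95%. Gene names were matched through RefSeq symbols and synonyms. Differences in mRNA and miRNA came from edgeR 4.0.16 (TMM, quasi-likelihood, filterByExpr) in R 4.3.3 over all features, with Benjamini-Hochberg adjustment at 0.05, tested on simulated data. Alternatives were DESeq2 1.42.0, other filters, covariates, site rules and scalings, and leaving out libraries. CPM values are TMM-scaled.

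Deviations of same-numbered mRNA libraries correlated at 0.770, 0.810, 0.745 and 0.801, all above 0.1, so the numbers were taken to pair the samples. Unequal numbers within a set correlated as well, at 0.832 (KO 3 and WT 4), 0.764 (KO 4 and WT 3), 0.344 (KO 1 and WT 2) and 0.241 (KO 2 and WT 1), so for numbers 3 and 4 the sets are seen rather than pairs. The pairing comes from the data, since the labels name no shared animal or day.

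Named loci and genes were the 12 loci of most reads, the 4 highest and 4 lowest ratios at 30 or more reads in each library, the 3 strongest loci of each library alone, listed miR-29 targets and the 5 genes of smallest mRNA p in each direction. The members and lists were chosen with earlier results of these data known. Some loci that this rule names are not reported here.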

Additional observations from a re-analysis of the deposited data

Results flagged for a closer look

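Of 116 groups of 4 mRNA libraries examined for a library far from the other 3, 7 were picked out by Dixon's criterion, and chance picks out about 1 in 20. Among KO-labelled libraries, Mcart1 was at 84.7 CPM in KO 2, with the nearest other library at 67.1 CPM. Tet2 was at 69.2 CPM in KO 2, with the nearest at 82.3 CPM, and Bmf at 10.7 CPM in KO 1, with the nearest at 20.0 CPM. Among WT-labelled libraries, Zfp36 was at 194 CPM in WT 4, with the nearest at 139 CPM, and Smpdl3a at 326 CPM in WT 3, with the nearest at 264 CPM. Bak1 was at 85.3 CPM in WT 3, with the nearest at 111 CPM, and Pdgfrb at 3.10 CPM in WT 4, with the nearest at 1.25 CPM.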

How the results depend on the processing

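With each library left out edgeR called 0 of all genes, so the count of 0 among the 432 says nothing of stability there. A replicate block called 0 of them and 5 of all genes. DESeq2 with the replicate block, chosen after seeing the data, called 2 (82 of all genes). The median mRNA log2 fold change ranged from -0.02 to 0.03 over 19 alternatives. For miR-29b-3p, DESeq2 gave a log2 fold change of 0.70 (adjusted p = 0.744), no longer called, and leaving out 1 library gave 0.23 to 1.53. Leaving out 1 library gave -0.11 to 0.52 for miR-29a-3p, -0.12 to 1.12 for Ccnd2 mRNA, -0.49 to 0.27 for miR-29b-1-5p, -0.33 to 0.49 for miR-29b-2-5p and -0.41 to 0.10 for miR-29c-5p, which all changed sign.

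With groups of at least 20 reads the site share was 3.04% in the KO-labelled and 2.77% in the WT-labelled library. Overlap with any group of the other library was then 84.9% and 85.5%, and with a miR-29 group 81.1% and 73.8%. With 7mer-m8 sites alone the WT-labelled share was 1.75%. Requiring 50% of each group to overlap gave 71.5% and 65.5%. Scaled to converted 3′ UTR reads, the median log2 ratio was 0.053 (0.040 over all loci). The causes of these shifts were not tested. PAR-CLIP had 1 library per label and lists only groups of 5 or more reads, so weak groups of 1 library alone cannot be called absent from the other.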

Other observations

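Distinct miR-29 sites were counted over both libraries together. In 24 genes there were at least 2, and in 4 genes at least 3. Tet3 had 4, and Tet2, Col4a5 and Nav1 had 3 each.

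Converted groups with a 6mer match to the miR-29 seed and no 7mer numbered 102 in the KO-labelled and 107 in the WT-labelled library. The genotype effect on mRNA was also compared between numbers 3 and 4 and numbers 1 and 2 with an interaction term. edgeR called 0 of the 432 genes, and 4 had an unadjusted p under 0.05, against 133 of all 14019 genes.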
